A study of Mus musculus with 20 samples.

Results

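The N-fragment of p65, residues 1 to 361, was set against its C-fragment, residues 362 to 549, each expressed alone in a murine B16 Bcr-Abl+ line. Arrays were chosen by their titles: 3 of the 20 arrays of the series carried residues 1-361 alone, 3 carried residues 362-549 alone, and the 5 arrays with both fragments together were not among the 6. The cells had been transfected with the plasmid of their group, and every group was the same Bcr-Abl+ line, so the fusion kinase is shared by all. Cells with a void plasmid (3 arrays, titled "Blanck" and read as void) served as a reference level. Wild-type p65 (WT, 3 arrays), the non-cleavable D361E form (3 arrays) and both fragments together (N+C, 5 arrays) entered the estimate of the spread. They also entered the filter on dim probes and the choice of the probe for each gene, and some of their medians by chromosome are given below. The strain is labelled mouse C3H eOuJ. The labels do not say whether the transfection was transient or stable, how long it lasted, whether a group was 1 clone, or whether the replicates were separate cultures, so a p-value speaks of the spread among these arrays, which may be technical.

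The p65 protein, encoded by Rela, is a subunit of the transcription factor NF-kB, which IkB proteins hold in the cytoplasm until the IKK complex marks them for destruction. Its N-terminal part carries the Rel homology domain, which binds DNA, pairs p65 with other subunits and is the part that IkB grips. The C-terminal part carries the transactivation domains, which recruit the transcription machinery and do not bind DNA on their own. The comparison therefore addresses how cells holding the DNA-binding part differ in expression from cells holding the transactivating part. Neither protein was measured here.

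Each value below is a level, the log2 of a probe's processed signal minus the 75th percentile of its own array, so a level of 0 is a bright probe. The lowest level well above background was -5.24 to -5.96 on the N-fragment arrays and -5.38 to -5.76 on the C-fragment arrays. Replicates are given in the order of their numbers. Differences are N-fragment minus C-fragment on that log2 scale, ± the standard error of the limma fit. Among the non-control spots, 51.1 to 54.6% were well above background on the N-fragment arrays and 52.9 to 54.4% on the C-fragment arrays. Over all genes tested, the levels of 2 N-fragment arrays correlated with r of 0.986 to 0.991, those of 2 C-fragment arrays with r of 0.991 to 0.992 and those of an N-fragment and a C-fragment array with r of 0.974 to 0.983 (r is across genes, which are not independent replicates). The median gene had an SD of 0.150 over the N-fragment arrays and 0.0799 over the C-fragment arrays. The 5 N+C arrays, which share the fit, also set the standard errors: without them 4921 genes were called where the fit with them called 3774. These 5 arrays were not alike: relative to void, replicates 1 to 3 had a median of -0.48 to -0.47 on chromosome 14 and 0.34 to 0.37 on chromosome 18, and replicates 4 and 5 had -0.05 to -0.02 and -0.08 to -0.05. They were fitted as 1 group. All 20 melanocyte markers, the lineage of B16, were above background somewhere on the 6 arrays and 19 on all 6, whereas 13 of 20 haematopoietic and B-lymphoid markers, Ptprc and Pax5 among them, were not above background on any.

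Of 18738 genes tested, 3774 were called at an adjusted p under 0.05, which is 20.1% and the background for the counts below. With the N-fragment 1872 genes were higher (9.99%) and 1902 were lower (10.2%), and the median difference over all genes was -0.04. The largest fitted differences lay mostly on the higher side. By the fit, 494 of the higher calls and 372 of the lower calls reached 2-fold, and 79 and 29 reached 8-fold. These counts include genes above background on no array of a fragment, whose true difference is known only as a bound. For Birc3 and Olfr874 among the higher calls and Perp and C1qtnf5 among the lower, the bound given below is under 8-fold. The counts, and the balance between the sides, therefore rest partly on signal at background. All 3 N-fragment levels lay above all 3 C-fragment levels in 3896 genes (20.8%) and below them in 4258 (22.7%). An N-fragment and a C-fragment array shared a slide on 2 slides and 3763 of the called genes had the sign of the fit on both, a count that the calls largely fix, since 4 of the 6 arrays make up these pairs. With the slide as a fixed block 4673 genes were called. Without scaling between arrays 2187 genes were called higher and 926 lower.

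The calls were spread unevenly over the genome, a pattern looked for after values had been seen. On chromosome 12, 177 of 490 measured genes were higher with the N-fragment (36.1%) and 15 lower (3.06%), and the median difference was 0.23. On chromosome 16 the balance turned the other way, with 11 of 433 genes higher (2.54%), 198 lower (45.7%) and a median of -0.34. The other 18 chromosomes, taken from the RefSeq gene table of GRCm38.p6, had 7.12 to 15.6% of genes higher, 6.22 to 13.6% lower and medians of -0.04 to 0.01. Both shifts appeared on every N-fragment array. Relative to the void mean, with each array's median over all placed genes set to 0, the median of chromosome 12 was 0.26, 0.26 and 0.27 on the N-fragment arrays and 0.03, 0.02 and 0.03 on the C-fragment arrays. The median of chromosome 16 was -0.36, -0.34 and -0.31 with the N-fragment and -0.01, -0.01 and 0.01 with the C-fragment. On the WT, D361E and N+C arrays both medians lay between -0.03 and 0.05, so neither shift was present on the 5 arrays that also carry residues 1-361 beside the C-fragment.

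On chromosome 9, 5 stretches of neighbouring genes stood above their C-fragment levels by similar medians, while the 10 genes flanking them differed by -1.41 to 0.25. Some genes a little beyond these flanks were also called higher, such as Casp1 (1.78), Zfp26 (1.87), Zbtb44 (1.65) and Aplp2 (1.50), and were not counted in the stretches. Together the stretches held 41 measured genes, of which 36 were higher and none lower by the same limma call, with a median of 1.73, while the other 732 genes of chromosome 9 had 76 higher, 83 lower and a median of -0.04. The stretch from Tirap to Pknox2 held 16 measured genes, 14 of them higher (median 1.70), between Dcps (0.09) and Tmem218 (-0.44). Foxred1 (log2 1.64 ± 0.066), Srpr (log2 1.69 ± 0.092), Fam118b (log2 1.67 ± 0.058) and Pus3 (log2 1.66 ± 0.071) in it differed by almost the same amount. Its 14 called genes as a whole ranged from 1.06 to 3.12. From Tmem123 to Yap1 all 4 measured genes were higher, namely Tmem123, Birc2, Birc3 and the Hippo pathway coactivator Yap1 (5.48, 5.67 and 5.68 with the N-fragment and 4.10, 4.14 and 4.14 with the C-fragment; log2 1.48 ± 0.077, adjusted p = 1.23e-09). The stretches from Med17 to Chordc1 (7 of 8 higher), Acad8 to Igsf9b (6 of 6) and Msantd2 to Olfr875 (5 of 7) had medians of 1.75, 1.94 and 1.70. Over all 41 genes the median relative to void was 1.85, 1.77 and 1.76 on the N-fragment arrays and -0.02, 0.01 and -0.02 on the C-fragment arrays. The choice of these genes by their differences largely fixes that gap. The median of the 41 genes was 0.26 to 0.30 on the N+C arrays, whose median over the rest of chromosome 9 was 0.13 to 0.28. The 964 genes on chromosomes 12 and 16 and in these stretches held 437 calls, and 3337 of the other 17774 genes were called (18.8%). The ends of the stretches and the genes named from them were chosen after their values were seen, and what they have to do with either fragment was not tested. Where a called list member that lies there is named below, its position is given.

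**Figure D1:**
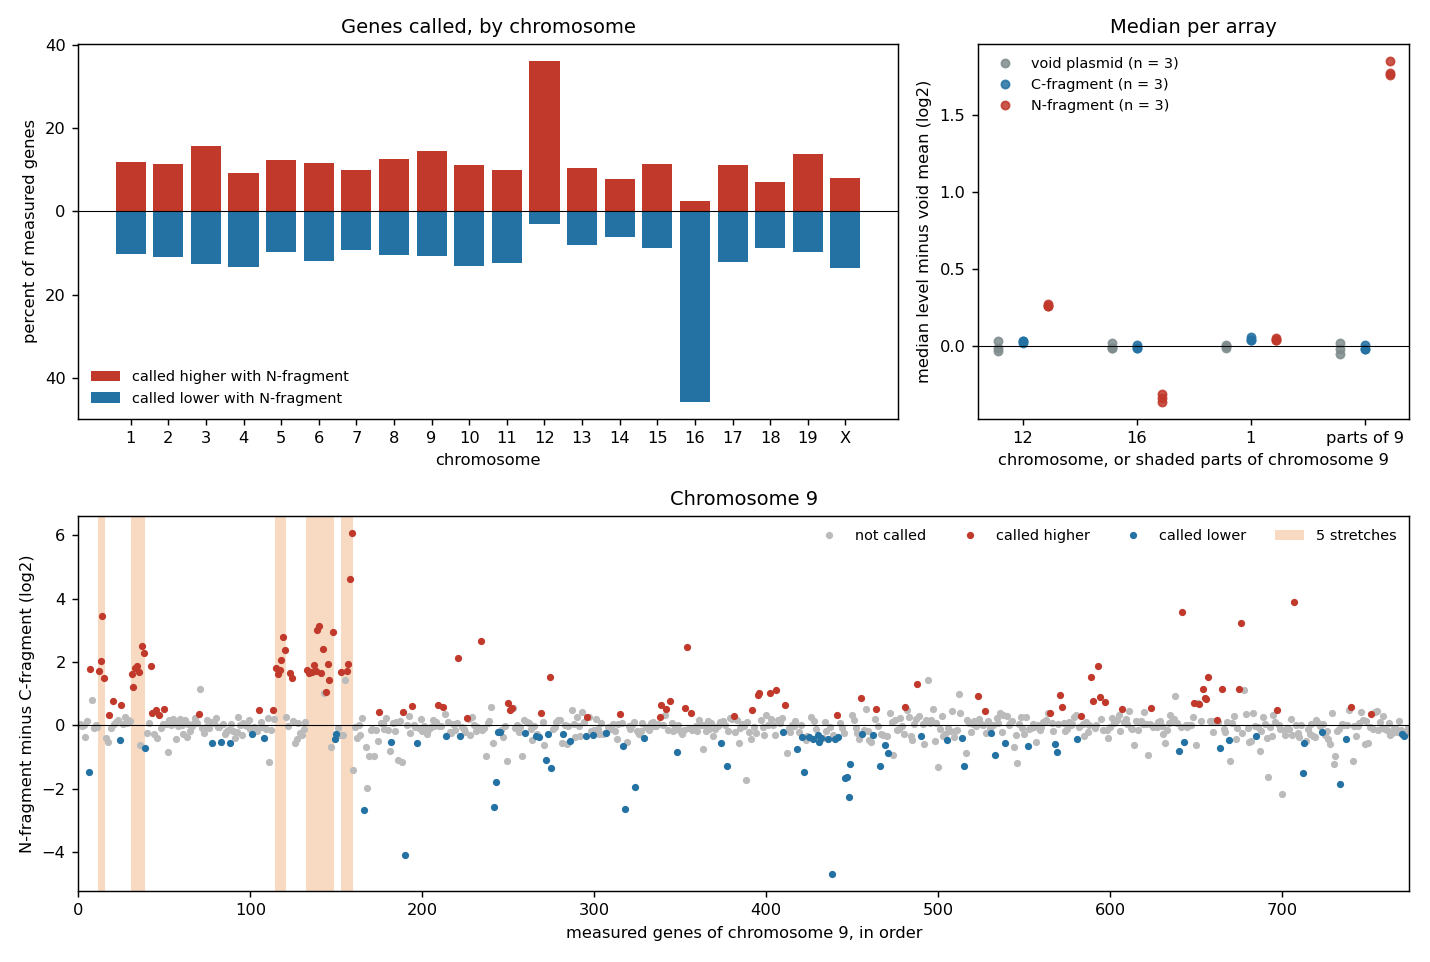
Genes called by chromosome (top left, bars, percent of measured genes, higher with the N-fragment upwards and lower downwards), the median level of chromosomes 12, 16 and 1 and of the 41 genes in 5 stretches of chromosome 9 on each array relative to the void mean (top right, log2, 3 arrays a group), and the log2 difference of every measured gene of chromosome 9 in order (bottom, stretches shaded). Chromosome 12 has 36.1% of its genes called higher and chromosome 16 has 45.7% called lower. The shaded genes, whose stretches were chosen after values were seen, sit at a median of 1.73.

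All 4 measured NF-kB subunit genes of 5 on the list were higher with the N-fragment. Rela itself was expressed at 4.51, 4.69 and 4.39 with the N-fragment and 4.30, 4.24 and 4.22 with the C-fragment, so each N-fragment level lay above each C-fragment level. The difference was small (log2 0.28 ± 0.070, adjusted p = 0.00956), and where the probe lies relative to the sequence of either fragment was not worked out here. Rela was not called in a fit of the 6 arrays alone, and was not called without N-fragment replicate 2 (adjusted p = 0.0567). Nfkb2, the gene of p100 and p52, stood at 1.83, 1.38 and 1.20 with the N-fragment and 0.45, 0.40 and 0.37 with the C-fragment. It differed most of the 4 (log2 1.06 ± 0.19, adjusted p = 0.000746). Relb, the partner of p52, had levels of 0.43, 0.36 and 0.17 with the N-fragment and -0.66, -0.59 and -0.51 with the C-fragment and differed nearly as much (log2 0.90 ± 0.11, adjusted p = 2.38e-05), with no overlap between the groups. Nfkb1, the gene of p105 and p50, was higher by its brighter probe (log2 0.72 ± 0.17, adjusted p = 0.00584) but its other probe differed by -0.37, and the mean of both was not called. The comparisons with void share the void arrays and are given side by side, with no comparison between them. Against void, 31.1% of genes were called with the N-fragment and 13.1% with the C-fragment. Relb differed from void by log2 0.37 ± 0.11 (adjusted p = 0.0208) with the N-fragment and log2 -0.54 ± 0.11 (adjusted p = 0.00532) with the C-fragment. Rela differed from void by log2 0.36 ± 0.070 (adjusted p = 0.00089) with the N-fragment and log2 0.084 ± 0.070 (adjusted p = 0.474) with the C-fragment, and it lies on chromosome 19, whose median gene was above void by 0.15 with the N-fragment and 0.17 with the C-fragment.

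Feedback inhibitors of NF-kB differed strongly for a few members: 4 of 19 measured were higher, none lower (1 at an unadjusted p under 0.05), and the median was 0.16. Tnfaip3 encodes A20, the enzyme that strips ubiquitin chains from the pathway's signalling complexes. It was at -2.14, -2.48 and -2.46 with the N-fragment and -4.47, -4.39 and -4.42 with void, and not well above background on any C-fragment array (at least 9.36-fold higher, adjusted p = 8.64e-11). Void cells thus lay between both fragments: Tnfaip3 stood log2 2.07 ± 0.15 (adjusted p = 3.48e-08) from void with the N-fragment and at least 2.24-fold lower (adjusted p = 6.32e-06) with the C-fragment. Nfkbia, the gene of IkB alpha, had levels of 2.85, 2.67 and 2.69 with the N-fragment and 1.33, 1.27 and 1.19 with the C-fragment. It was 2.77-fold higher (log2 1.47 ± 0.11, adjusted p = 7.82e-08) and lies on chromosome 12, whose median difference was 0.23. Bcl3, a nuclear IkB protein, reached -2.86, -3.11 and -2.98 with the N-fragment and -4.23, -4.10 and -4.55 with the C-fragment (log2 1.31 ± 0.16, adjusted p = 1.83e-05). Its N-fragment levels overlapped those of void, -2.76, -2.85 and -2.99, and its C-fragment levels lay below them all. The deubiquitinase gene Cyld was higher too (log2 0.67 ± 0.095, adjusted p = 8.28e-05), at 0.42, 0.27 and 0.33 with the N-fragment and -0.33, -0.36 and -0.30 with the C-fragment. Nfkbie, the gene of IkB epsilon, did not overlap between the groups (-0.49, -0.54 and -0.62 with the N-fragment and -1.21, -1.17 and -1.19 with the C-fragment) but missed the threshold (log2 0.64 ± 0.23, adjusted p = 0.0587). The other 14 measured members, Nfkbib, Nfkbiz, Nfkbil1, Nfkbid, Tnip1, Tnip2, Traf3, Tank, Nkiras1, Nkiras2, Ikbip, Otud7b, N4bp1 and Zc3h12a, were not called.

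The promoters below belong to the 4 called NF-kB genes with the largest differences among those whose window holds a kB motif, since p65 is known for binding it in several of them. All 4 hold a match because that is how they were chosen, and Birc3, Birc2, Gadd45b, Junb and Bcl3, which differed by more than Nfkb2, hold none in this window. Ccl5, Il15, Relb, Nfkb1 and Ccnd1, also called, had no promoter in the RefSeq table and were not searched. The motif was searched on both strands as the classical kB consensus of 10 letters in the 250 bases before each RefSeq start site (GRCm38.p6), and overlapping matches were kept. Matches are in capitals, 5′ to 3′ on the strand of the gene.
Tnfaip3, chr10:19015411-19015660, minus strand: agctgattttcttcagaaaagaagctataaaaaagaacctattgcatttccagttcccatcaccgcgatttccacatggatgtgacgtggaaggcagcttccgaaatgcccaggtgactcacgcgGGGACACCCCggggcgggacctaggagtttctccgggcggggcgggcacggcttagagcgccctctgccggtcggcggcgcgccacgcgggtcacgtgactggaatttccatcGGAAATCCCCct
Cxcl10, chr5:92348890-92349139, minus strand: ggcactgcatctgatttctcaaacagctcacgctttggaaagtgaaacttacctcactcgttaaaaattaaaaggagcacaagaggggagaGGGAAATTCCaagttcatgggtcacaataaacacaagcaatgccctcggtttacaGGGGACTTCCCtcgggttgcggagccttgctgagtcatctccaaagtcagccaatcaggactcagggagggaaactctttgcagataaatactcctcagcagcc
Nfkbia, chr12:55492648-55492897, minus strand: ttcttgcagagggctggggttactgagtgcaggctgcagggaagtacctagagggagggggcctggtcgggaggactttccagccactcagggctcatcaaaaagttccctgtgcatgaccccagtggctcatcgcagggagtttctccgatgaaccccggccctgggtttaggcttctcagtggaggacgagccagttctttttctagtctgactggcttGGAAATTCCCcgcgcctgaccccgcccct
Nfkb2, chr19:46304487-46304736, plus strand: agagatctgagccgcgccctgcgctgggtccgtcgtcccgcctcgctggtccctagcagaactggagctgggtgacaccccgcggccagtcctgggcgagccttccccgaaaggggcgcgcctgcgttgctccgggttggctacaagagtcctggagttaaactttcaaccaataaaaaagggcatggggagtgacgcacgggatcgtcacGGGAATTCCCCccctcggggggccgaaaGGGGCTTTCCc
Tnfaip3 holds 2 matches, GGGACACCCC and GGAAATCCCC, which begin 125 and 12 bases before the start site. Cxcl10 holds GGGAAATTCC at 159 bases and the overlapping GGGGACTTCC and GGGACTTCCC at 104 and 103. Nfkbia holds GGAAATTCCC at 29 bases, and Nfkb2 holds the overlapping GGGAATTCCC and GGAATTCCCC at 39 and 38 and GGGGCTTTCC at 11. A match is a stretch of letters and not a measured binding site. Of the 46 measured genes of the NF-kB lists with a promoter in the table, 19 held a match (41.3%), as did 7 of the 17 called higher (41.2%). The share was 8.23% over the 27025 genes of the table and 10.3% over the 11033 tested here that it holds. It was 10.4% both of the 1321 genes called higher and of the 1337 called lower.

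Of 26 chemokines and cytokines that NF-kB is known to drive, 25 had a probe on the array and 9 were measured, of which 4 were higher and 1 lower. The T cell and monocyte attractant Ccl5 differed most, at 3.93, 3.63 and 3.48 with the N-fragment and 0.063, 0.12 and -0.0013 with the C-fragment. Its N-fragment levels were 12.3-fold higher (log2 3.62 ± 0.17, adjusted p = 3.51e-10), and its C-fragment levels overlapped those of void, -0.085, 0.0084 and 0.25. Cxcl10, which attracts T cells through CXCR3, reached 2.64, 2.72 and 2.59 with the N-fragment and -0.65, -0.67 and -0.73 with the C-fragment (log2 3.33 ± 0.077, adjusted p = 1.03e-13). Void again lay between, since Cxcl10 differed from void by log2 2.02 ± 0.077 (adjusted p = 2.76e-11) with the N-fragment and log2 -1.32 ± 0.077 (adjusted p = 3.86e-08) with the C-fragment. The membrane-bound chemokine Cx3cl1 (log2 0.61 ± 0.16, adjusted p = 0.0103) and the macrophage growth factor Csf1 (log2 0.74 ± 0.25, adjusted p = 0.0452) were higher by less. Neither call was firm: Csf1 was not called without any 1 of the 6 arrays (adjusted p 0.0759 to 0.138) and Cx3cl1 was not called without N-fragment replicate 1 or C-fragment replicate 3 (adjusted p 0.0508 to 0.0536). The count of higher chemokines was 2 without N-fragment replicate 1 or C-fragment replicate 3. The lymphocyte survival cytokine Il15 went the other way, above background on 2 of 3 C-fragment arrays and on no N-fragment array (at least 1.21-fold lower, adjusted p = 1.39e-06). Cxcl1 and Ccl2, the neutrophil and monocyte chemokines that often mark NF-kB activity, were not above background with either fragment. Lif and Csf3 were above background on 1 N-fragment array each and on no C-fragment array, and neither was called.

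NF-kB-driven adhesion, enzyme and effector genes had 4 of 15 measured members higher, 1 lower (2 without N-fragment replicate 2) and a median of -0.07 whose sign turned under another scaling. Junb, an AP-1 subunit, was at -3.79, -4.48 and -4.52 with the N-fragment and above background on 1 of 3 C-fragment arrays (log2 1.37 ± 0.27, adjusted p = 0.00141). The urokinase receptor Plaur (log2 0.82 ± 0.22, adjusted p = 0.0157) and cyclin D1, Ccnd1 (log2 0.48 ± 0.087, adjusted p = 0.000907), were higher with no overlap, and Plaur was not called without N-fragment replicate 1 (adjusted p = 0.062). Cd44, a receptor for hyaluronan, was higher by its brightest probe (log2 0.54 ± 0.086, adjusted p = 0.000275), but its 4 probes ranged from -0.16 to 1.08. Stat5a, a transcription factor that Bcr-Abl is known to activate, stood at 0.18, 0.31 and 0.41 with the N-fragment and 0.71, 0.85 and 0.88 with the C-fragment and was lower (log2 -0.52 ± 0.10, adjusted p = 0.00142), a call lost without scaling. Sod2, Nos2, Irf1, Ptges, Tgm2, Vegfc, Lcn2, Saa3, C3 and Cfb were not called.

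Upstream in the pathway, 4 of 26 IKK, TNF receptor and adaptor genes were higher and 2 lower, with a median of 0.03. The Toll-like receptor adaptor Tirap (1.27, 1.09 and 1.01 with the N-fragment and -0.58, -0.59 and -0.70 with the C-fragment; log2 1.74 ± 0.081, adjusted p = 3.39e-10) lies in the chromosome 9 stretch described above. The TWEAK receptor Tnfrsf12a lies on chromosome 17 and was at 4.70, 4.51 and 4.43 with the N-fragment and 2.88, 2.79 and 2.77 with the C-fragment (log2 1.73 ± 0.093, adjusted p = 1.88e-09). Tab3, an adaptor of the TAK1 kinase (0.24), and Chuk, the gene of IKK alpha (0.20), were higher by little. Tnfrsf1a, the main TNF receptor, was lower (log2 -0.65 ± 0.081, adjusted p = 2.38e-05), as was the endotoxin receptor Tlr4 (log2 -0.44 ± 0.083, adjusted p = 0.00113). Neither overlapped between the groups.

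Survival genes were higher in 5 of 12 measured cases and lower in none, 0 at an unadjusted p under 0.05 (median 0.21), and 2 of the 5 lie in the chromosome 9 stretch from Tmem123 to Yap1. Birc2 and Birc3 encode cIAP1 and cIAP2, ubiquitin ligases that hold back caspase-8 and tie TNF receptors to NF-kB. Birc2 was at -0.47, -0.59 and -0.53 with the N-fragment and -2.55, -2.57 and -2.52 with the C-fragment (log2 2.02 ± 0.12, adjusted p = 4.49e-09). Birc3 was at -3.86, -4.63 and -4.16 with the N-fragment and not above background with the C-fragment or void (at least 2.59-fold higher, adjusted p = 3.92e-05). Their non-NF-kB neighbours Tmem123 (log2 1.72 ± 0.062) and Yap1 (log2 1.48 ± 0.077) were higher too. Gadd45b, a stress gene that restrains JNK, lies elsewhere and was at -0.41, -0.63 and -0.55 with the N-fragment and -2.57, -2.55 and -2.25 with the C-fragment (log2 1.93 ± 0.11, adjusted p = 3.04e-09). Bcl2l1, the gene of Bcl-xL, was at 4.54, 4.78 and 4.84 with the N-fragment and 3.79, 3.77 and 3.83 with the C-fragment (log2 0.92 ± 0.23, adjusted p = 0.00976). Its relative Bcl2 differed by 0.67 and was not called without N-fragment replicate 1 or C-fragment replicate 2 (adjusted p 0.0566 to 0.0752). Both exceeded void with the N-fragment, Bcl2l1 by log2 1.17 ± 0.23 (adjusted p = 0.00112) and Bcl2 by log2 0.78 ± 0.18 (adjusted p = 0.00338). Traf1, Cflar, Xiap, Mcl1, Bcl2l2, Ier3 and Birc5 were not called, and the 3 probes of Cflar ranged from -0.20 to 0.55.

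Among 21 pro-apoptotic genes 4 were higher and 2 lower (median -0.06, with another sign under another scaling). The inflammatory caspase Casp1 (log2 1.78 ± 0.50, adjusted p = 0.0175), the BH3-only genes Bcl2l11 (at least 1.38-fold higher, adjusted p = 0.028) and Bid (log2 0.29 ± 0.088, adjusted p = 0.0274), and Diablo, which neutralises IAP proteins, were higher. Of these, Casp1 was not called without N-fragment replicate 1 or C-fragment replicate 2 or 3 (adjusted p 0.0503 to 0.0678). Bcl2l11 was not called without N-fragment replicate 1 or 3 or C-fragment replicate 1 or 2 (adjusted p 0.0517 to 0.156) and Bid was not called without N-fragment replicate 1 or C-fragment replicate 2 or 3 (adjusted p 0.0821 to 0.14). The apoptosome caspase Casp9 (log2 -0.55 ± 0.098, adjusted p = 0.000742) and the effector Bok (log2 -0.70 ± 0.13, adjusted p = 0.000794) were lower. The count of higher members was 1 without N-fragment replicate 1 or C-fragment replicate 2 and 2 without C-fragment replicate 3.

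**Figure D2:**
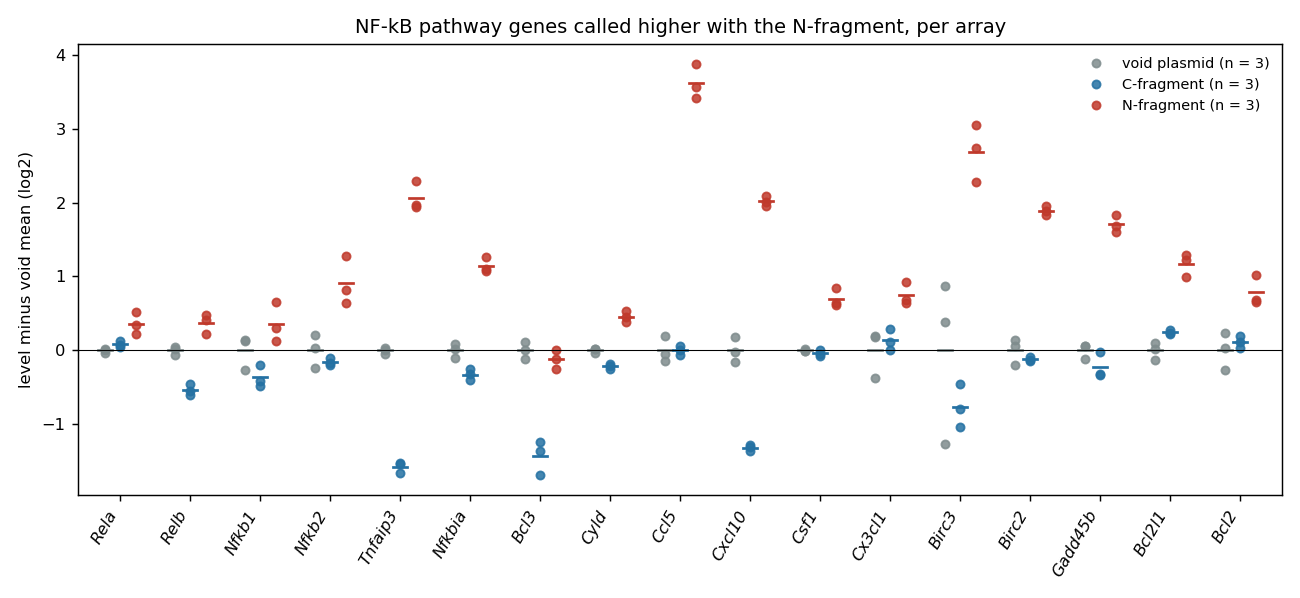
Levels of the 17 NF-kB subunit, feedback, chemokine and survival genes called higher with the N-fragment, on every void, C-fragment and N-fragment array, as log2 difference from the void mean (points are arrays, 3 a group, and bars are group means). Il15, called lower, is not shown. For Tnfaip3, Bcl3 and Cxcl10 the C-fragment points lie below void, whereas Ccl5, Birc2 and Gadd45b sit at or near void with the C-fragment and are high on the N-fragment arrays; Tnfaip3 and Birc3 were not above background with the C-fragment.

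The genes that differed most were largely outside the NF-kB lists. Cyba, the p22phox subunit of the superoxide-producing NADPH oxidase, was at 2.54, 2.40 and 2.31 with the N-fragment and 1.60, 1.81 and 1.89 with void but not above background on any C-fragment array (at least 257-fold higher, adjusted p = 0.00509). Rgs16, which shortens G protein signals, was at 0.69, 0.50 and 0.42 and above background on 1 of 3 C-fragment arrays (log2 7.03 ± 0.55, adjusted p = 1.54e-07). The p75 neurotrophin receptor Ngfr, a marker of neural crest cells, was at -0.51, -0.95 and -1.11 and not above background with the C-fragment (at least 26.6-fold higher, adjusted p = 4.18e-11). These 3 genes were thus well detected in the N-fragment cells and at or near background in the C-fragment cells. The size of the Rgs16 difference rests on dim C-fragment spots: it was 6.35 without C-fragment replicate 2, 7.81 without replicate 3 and 3.40 with normexp background correction, and it was called each time. Megf10, an engulfment receptor, was above background in both, at 1.11, 0.86 and 0.87 with the N-fragment and -4.73, -4.67 and -4.49 with the C-fragment (log2 5.58 ± 0.48, adjusted p = 4.47e-07). Tmem88, a membrane protein that dampens Wnt signals, was at 1.58, 1.49 and 1.48 with the N-fragment and -3.57, -3.78 and -4.14 with the C-fragment (log2 5.35 ± 0.21, adjusted p = 4.18e-11). The zinc finger gene Zfp536 (at least 13.3-fold higher, adjusted p = 2.27e-09) and Tmem121 (at least 8.02-fold higher, adjusted p = 3.45e-10) were not above background with the C-fragment. Mbp, the myelin basic protein, was at -0.21, -0.47 and -0.66 and above background on 2 C-fragment arrays (log2 4.78 ± 0.75, adjusted p = 0.000231), and with the C-fragment it differed from void by log2 -5.43 ± 0.75 (adjusted p = 0.000204). The olfactory receptor genes Olfr875 (at least 13.8-fold higher, adjusted p = 3.15e-14), Olfr1499 (at least 5.66-fold higher, adjusted p = 1.08e-07) and Olfr874 (at least 6.38-fold higher, adjusted p = 1.91e-07) also stood among the most raised, and Olfr874 and Olfr875 are neighbours in a chromosome 9 stretch.

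On the lower side Lgals3, the gene of galectin-3, a lectin that melanoma cells often express, fell from 6.16, 6.10 and 6.15 with the C-fragment to -2.36, -2.25 and -2.08 with the N-fragment (log2 -8.37 ± 1.00, adjusted p = 1.46e-05). It was above background on all 6 arrays, and void at 4.27, 4.12 and 4.18 lay nearer the C-fragment. Dkk3, a secreted protein of the dickkopf family, was at 1.51, 1.52 and 1.47 with the C-fragment and not above background with the N-fragment (at least 133-fold lower, adjusted p = 2.3e-10). The forkhead factor Foxr2 was at -5.63, -5.30 and -4.85 with the N-fragment and 0.96, 1.04 and 1.18 with the C-fragment (log2 -6.32 ± 0.54, adjusted p = 3.51e-07). Tor4a of the torsin family (at least 31.5-fold lower, adjusted p = 2.22e-11), the D-lactate dehydrogenase Ldhd (at least 20.3-fold lower, adjusted p = 0.000603) and the vesicle-tethering Sytl4 (at least 9.38-fold lower, adjusted p = 0.00319) were likewise not above background with the N-fragment. With the C-fragment Tor4a differed from void by log2 -0.023 ± 0.22 (adjusted p = 0.962) and Ldhd by log2 -0.46 ± 0.98 (adjusted p = 0.801). Rgs2, another brake on G protein signals, was at -5.18, -5.05 and -4.98 with the N-fragment and -0.89, -0.91 and -1.06 with the C-fragment (log2 -4.11 ± 0.22, adjusted p = 1.97e-09), opposite in direction to Rgs16. The potassium channel gene Kcnj13 was not above background with the N-fragment by its brightest probe (at least 31.7-fold lower, adjusted p = 7.73e-06), and its other probe was above background there on 1 of 3 arrays. Tvp23a on chromosome 16 (at least 6.23-fold lower, adjusted p = 2.87e-09), Lysmd2 (at least 11.8-fold lower, adjusted p = 1.66e-09) and C1qtnf5 (at least 3.59-fold lower, adjusted p = 8.26e-07) were not above background with the N-fragment. The small heat shock gene Hspb8 (at least 9.72-fold lower, adjusted p = 0.0314) completed the 12, and it was not called without any 1 of the 6 arrays (adjusted p 0.0628 to 0.0874).

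Genes above background on all 3 arrays of 1 fragment and on none of the other numbered 112 for the N-fragment, 93 of them called, and 98 for the C-fragment, 64 of them called. The olfactory receptor, Zfp536, Tor4a and Dkk3 values above are of this kind. Choosing genes by detection in this way favours a call, so these counts cannot be read against the 20.1% called over all genes tested.

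Mesenchymal and TGF-beta response genes were the group with the largest median, 1.14: 16 of 27 measured members of 34 were higher and none lower (1 at an unadjusted p under 0.05). Id3, a partner of E proteins that blocks their DNA binding and is a classical target of BMP signals, was at 4.64, 4.29 and 4.19 with the N-fragment and 0.89, 0.69 and 1.56 with the C-fragment (log2 3.33 ± 0.45, adjusted p = 5.01e-05). Fn1, the gene of fibronectin, was at 3.45, 3.19 and 3.12 with the N-fragment and 0.25, 0.15 and 0.27 with the C-fragment (log2 3.03 ± 0.43, adjusted p = 8.48e-05). Its C-fragment levels sat with void at 0.28, 0.30 and 0.35, so the N-fragment levels were the ones that stood apart. Without the members on chromosomes 12 and 16, which include Id2, Tgfb3 and Snai2, 13 of 24 were higher and the median was 0.93. Leaving out 1 array kept 13 to 15 of 27 higher. Tgfb1, Tgfb2, Tgfbr1, Tgfbr2, Vim, Zeb2 and Lox were among the 11 that were not called, so the ligands other than Tgfb3 and the receptors did not move past the threshold.

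Collagens, laminins and their processing genes followed: 10 of 18 measured members of 30 were higher and none lower (1 at an unadjusted p under 0.05), with a median of 0.56. Lamb1, the laminin beta 1 chain of basement membranes, was at 2.47, 2.19 and 2.16 with the N-fragment and -1.88, -2.11 and -2.18 with the C-fragment (log2 4.33 ± 0.49, adjusted p = 8.87e-06) and lies on chromosome 12. Col1a1, the chain of fibrillar collagen I, was at -1.01, -0.98 and -0.93 with the N-fragment and -5.42, -5.21 and -4.61 with the C-fragment (log2 4.11 ± 0.78, adjusted p = 0.00119). The partner chain Col1a2 was higher as well (log2 2.03 ± 0.37, adjusted p = 0.000928), at 1.52, 1.33 and 1.14 with the N-fragment and -0.73, -0.74 and -0.62 with the C-fragment. Here the C-fragment levels lay below those of void, 0.26, 0.50 and 0.63, and the N-fragment levels above them. Enzymes that modify and fold collagen, Plod1, Plod2, P3h1 and Serpinh1, were not called.

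Integrins and focal adhesion genes were higher in 11 of 24 measured cases and lower in none, 1 at an unadjusted p under 0.05 (median 0.17). Lims2, an adaptor that links integrins to actin through ILK, was at 5.26, 5.09 and 5.04 with the N-fragment and 1.44, 1.29 and 1.70 with the C-fragment (log2 3.66 ± 0.25, adjusted p = 2.69e-08). Void was lower still, at -1.78, -1.20 and -1.42, so Lims2 exceeded void by log2 6.60 ± 0.25 (adjusted p = 2.27e-11) with the N-fragment and log2 2.94 ± 0.25 (adjusted p = 2.3e-06) with the C-fragment. The scaffold paxillin, Pxn, was at -2.38, -3.04 and -3.00 with the N-fragment and -4.07, -4.09 and -4.16 with the C-fragment (log2 1.30 ± 0.20, adjusted p = 0.000143). The laminin receptor chain Itga6 was at 4.72, 4.59 and 4.69 with the N-fragment and 3.73, 3.69 and 3.75 with the C-fragment (log2 0.94 ± 0.13, adjusted p = 5.85e-05). The fibronectin receptor chain Itga5, Itgav and Itgb3 were not called.

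Genes linked to the invasive state of melanoma cells were higher in 4 of 8 measured cases and lower in 1 (median 0.37). Besides Ngfr, the receptor tyrosine kinase Axl was at 0.75, 0.36 and 0.47 with the N-fragment and -3.31, -3.44 and -3.38 with the C-fragment (log2 3.90 ± 0.32, adjusted p = 2.11e-07). Its C-fragment levels overlapped those of void, -3.44, -2.93 and -3.16. Tead4, a partner of YAP, was at 0.24, -0.066 and -0.14 with the N-fragment and -1.06, -1.23 and -1.23 with the C-fragment (log2 1.19 ± 0.18, adjusted p = 0.000162). Mertk, a kinase related to Axl, was above background on 2 C-fragment arrays and on no N-fragment array (at least 1.30-fold lower, adjusted p = 0.0236), and was not called without N-fragment replicate 1 or 2 or C-fragment replicate 2 or 3 (adjusted p 0.0569 to 0.117) and not called without scaling.

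Markers of other cell types are given for the whole lists, and the matrix genes Col1a1 and Col1a2 are themselves on the fibroblast list. Of 12 fibroblast markers 7 were measured, with 3 higher, Col1a1, Col1a2 and Pdgfra (at least 3.86-fold higher, adjusted p = 2.09e-06), and 1 lower, Fbln1 (log2 -1.26 ± 0.16, adjusted p = 4.39e-05), which had 1 N-fragment value dropped as an outlier spot. Fbln1 was not called when outlier spots were kept. Col3a1, Dcn, Fap, Fbln2, Lum and Pdgfrb were not above background on any of the 6 arrays. The summed linear level of the 12 was 5.58 to 7.92 with the N-fragment, 7.37 to 7.85 with the C-fragment and 7.62 to 10.5 with void, where 1 is the array's 75th percentile. Of 10 endothelial markers, Vwf (log2 2.91 ± 0.65, adjusted p = 0.00397) and Egfl7 (log2 0.86 ± 0.16, adjusted p = 0.00113) were higher while Cdh5, Cldn5, Emcn, Flt1, Tek and Tie1 were not above background. Their sum was 7.71 to 8.02 with the N-fragment, 5.17 to 5.44 with the C-fragment and 6.43 to 6.82 with void. Macrophage markers had 1 call, the endotoxin co-receptor Cd14 (at least 1.37-fold lower, adjusted p = 0.0172), which was not called without N-fragment replicate 3 or C-fragment replicate 1 (adjusted p 0.0554 to 0.0689). T and NK cell markers had none among 5 measured, and epithelial markers had 1, Perp (at least 3.26-fold lower, adjusted p = 9.35e-06). The 14 macrophage markers, 8 of which, Adgre1 and Tyrobp among them, were not above background on any of the 6 arrays, summed to 2.23 to 2.75 with the N-fragment, 2.97 to 3.59 with the C-fragment and 2.83 to 5.39 with void. The 13 epithelial and keratinocyte markers, with Cdh1, Epcam, Krt8 and Krt18 among 8 not above background, summed to 2.73 to 3.46, 3.92 to 4.27 and 3.70 to 5.26. Both sums were thus lower with the N-fragment than with the C-fragment, without overlap. Of 14 T and NK cell markers 13 were on the array, 8 of them not above background on any of the 6 arrays. The 13 summed to 1.69 to 2.00, 1.97 to 2.11 and 1.42 to 1.87. Whether fewer cells of a type or less RNA per cell lies behind a difference cannot be told apart in bulk RNA, and the part of other cell types in these differences was not tested.

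**Figure D3:**
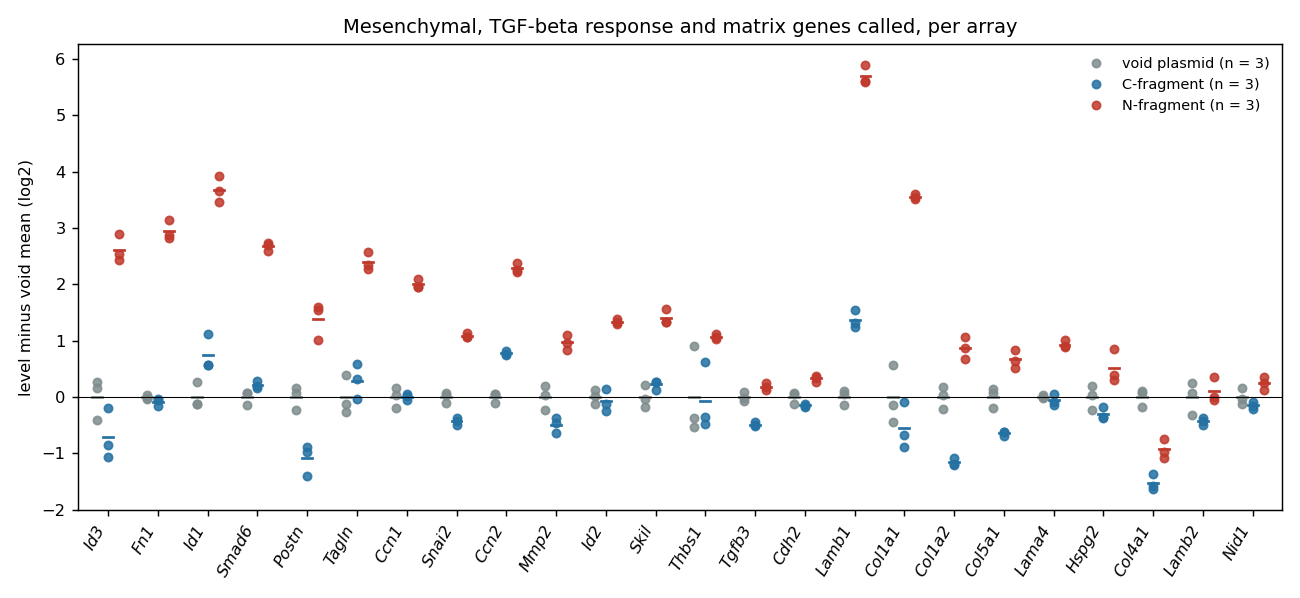
Levels of called mesenchymal, TGF-beta response, collagen and laminin genes on every void, C-fragment and N-fragment array, as log2 difference from the void mean; points are arrays (3 a group), bars are group means. For Fn1, Smad6 and Ccn1 the C-fragment points lie at void and only the N-fragment points are high, whereas for Col1a2, Col5a1 and Postn the C-fragment points lie below void; Postn was not above background with the C-fragment.

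AP-1, EGR and MYC early genes, which growth factor and stress signals switch on within minutes, were higher in 13 of 19 measured cases and lower in none, 0 at an unadjusted p under 0.05, with a median of 0.80. Egr1 was at -2.74, -2.87 and -3.11 with the N-fragment, above background on 2 of 3 C-fragment arrays and on none of void (log2 2.59 ± 0.56, adjusted p = 0.00342). Maff, a small Maf factor, was at -0.64, -0.75 and -0.63 with the N-fragment and -2.78, -2.50 and -2.73 with the C-fragment (log2 2.00 ± 0.11, adjusted p = 2e-09). Both fragments exceeded void for Maff, by log2 3.05 ± 0.11 (adjusted p = 1.44e-11) with the N-fragment and log2 1.05 ± 0.11 (adjusted p = 1.42e-05) with the C-fragment. Of 17 ERK feedback and output genes 4 were higher and none lower (1 at an unadjusted p under 0.05), with 2 without N-fragment replicate 2 or C-fragment replicate 2 or 3. Epha2, a receptor for ephrins, was at -1.53, -1.49 and -1.30 and above background on 1 C-fragment array (log2 4.13 ± 0.37, adjusted p = 5.97e-07). Etv4, an ETS factor, was at -0.22, -0.51 and -0.57 with the N-fragment and -1.23, -1.54 and -1.74 with the C-fragment (log2 1.07 ± 0.23, adjusted p = 0.00267). It too exceeded void with both fragments, by log2 3.56 ± 0.23 (adjusted p = 7.91e-09) with the N-fragment and log2 2.49 ± 0.23 (adjusted p = 4.83e-06) with the C-fragment. Dusp1, a phosphatase of MAP kinases, had -1.28, -0.86 and -0.49 with the N-fragment and -1.75, -1.60 and -1.79 with the C-fragment (log2 0.84 ± 0.28, adjusted p = 0.0476). It was not called without N-fragment replicate 2 or 3 or C-fragment replicate 1, 2 or 3 (adjusted p 0.0834 to 0.183). Spry2, a feedback inhibitor of the pathway, was higher by little (log2 0.26 ± 0.077, adjusted p = 0.0229). Its relatives Spry4 and Spred1, and Dusp6 and Etv5, were not called.

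Of 27 mitosis and spindle genes 13 were higher and none lower (1 at an unadjusted p under 0.05), 24 differences were positive, and in 22 the groups did not overlap with the N-fragment above, but the sizes were small (median 0.32). Cenpe, a kinetochore motor, was at 4.55, 4.32 and 4.39 with the N-fragment and 3.89, 3.86 and 3.82 with the C-fragment (log2 0.56 ± 0.11, adjusted p = 0.00183). Ube2c, which ends mitosis with the anaphase-promoting complex, was at 4.49, 4.39 and 4.39 with the N-fragment and 3.91, 3.88 and 3.81 with the C-fragment (log2 0.56 ± 0.091, adjusted p = 0.000322). Foxm1, the transcription factor of these genes, differed by 0.55. Foxm1 was not called without N-fragment replicate 1 (adjusted p = 0.0726). Of 28 DNA replication and nucleotide synthesis genes 4 were higher, with 2 without N-fragment replicate 1 or 2 or C-fragment replicate 1, 2 or 3, and 2 were lower, with 1 without N-fragment replicate 3 or C-fragment replicate 1, and the median was 0.00. Rrm2, a ribonucleotide reductase subunit on chromosome 12 (log2 0.56 ± 0.090, adjusted p = 0.000279), was the highest, and the helicase subunit Mcm3 (0.20), the primase Prim1 (0.26) and Rrm1 (0.18) were the others. Thymidylate synthase, Tyms (log2 -0.28 ± 0.080, adjusted p = 0.0188), and the clamp loader subunit Rfc4 on chromosome 16 (log2 -0.30 ± 0.071, adjusted p = 0.00592) were lower. Tyms was not called without N-fragment replicate 1 or 3 or C-fragment replicate 1 or 3 (adjusted p 0.0553 to 0.0892) and Mcm3 was not called without N-fragment replicate 1 or 2 or C-fragment replicate 1, 2 or 3 (adjusted p 0.0541 to 0.0884). In the G1 list 3 of 15 were higher and 3 lower: Myc (log2 0.85 ± 0.21, adjusted p = 0.00745), Ccnd1 and the CDK inhibitor Cdkn2d (log2 0.35 ± 0.072, adjusted p = 0.00212) were higher, whereas the inhibitors Cdkn2c (log2 -0.50 ± 0.10, adjusted p = 0.00197) and Cdkn1b (log2 -0.42 ± 0.087, adjusted p = 0.00229) and cyclin D3, Ccnd3 (log2 -0.31 ± 0.055, adjusted p = 0.000551), were lower. No G1 member was lower without scaling.

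Cholesterol and fatty acid synthesis was the group with the most lower calls: 18 of 30 measured genes were lower and 1 was higher, the median was -0.47, and in 25 all N-fragment levels lay below all C-fragment levels. Scd1, the desaturase that makes oleate, was at 0.29, 0.19 and 0.12 with the N-fragment and 1.49, 1.45 and 1.47 with the C-fragment (log2 -1.27 ± 0.11, adjusted p = 4.34e-07). Dhcr7, the last enzyme of cholesterol synthesis, was at 0.056, -0.10 and -0.066 with the N-fragment and 0.97, 0.98 and 0.97 with the C-fragment (log2 -1.01 ± 0.20, adjusted p = 0.00182). Srebf1, the gene of the lipid-inducing transcription factor SREBP-1, was at -2.25, -2.33 and -2.33 with the N-fragment and -1.50, -1.43 and -1.44 with the C-fragment (log2 -0.85 ± 0.099, adjusted p = 1.17e-05). All 3 were below void with the N-fragment, by log2 -1.04 ± 0.11 (adjusted p = 2.72e-06) for Scd1, log2 -0.99 ± 0.20 (adjusted p = 0.00135) for Dhcr7 and log2 -1.02 ± 0.099 (adjusted p = 1.03e-06) for Srebf1. With the C-fragment they differed from void by log2 0.23 ± 0.11 (adjusted p = 0.191), log2 0.019 ± 0.20 (adjusted p = 0.965) and log2 -0.17 ± 0.099 (adjusted p = 0.287). Hsd17b7 alone was higher (log2 0.51 ± 0.12, adjusted p = 0.00583), and its other probe differed by 0.09. None of the 30 lies on chromosome 12 or 16 or in the stretches of chromosome 9. Without scaling between arrays 11 members were lower, and leaving out 1 array left 14.

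**Figure D4:**
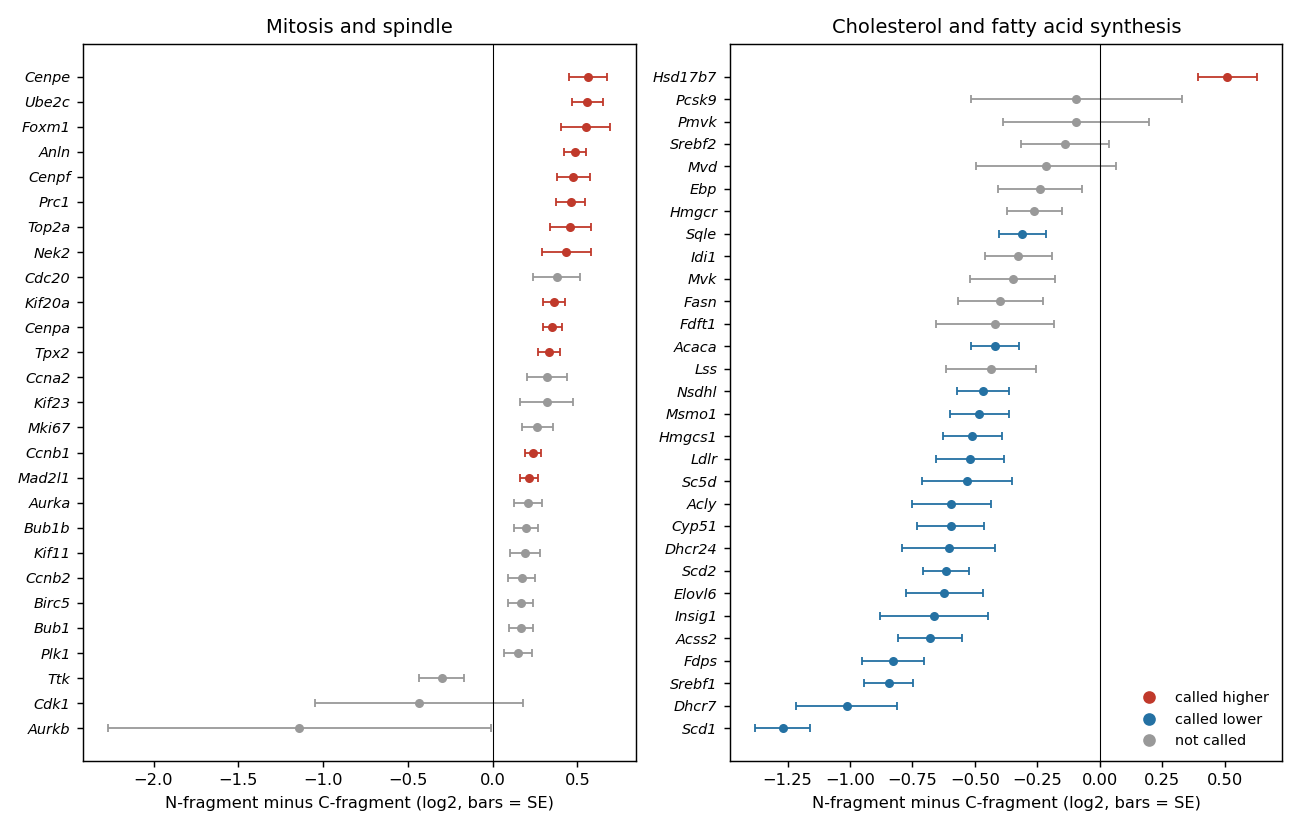
Log2 difference, N-fragment minus C-fragment, of every measured member of the mitosis and spindle list (left, 27 genes) and of the cholesterol and fatty acid synthesis list (right, 30 genes); points are differences of means of 3 and 3 arrays, bars the standard error of the limma fit. Of the mitosis genes 24 lie right of 0, and of the lipid genes 29 lie left of it.

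Among 25 p53 targets 4 were higher, with 2 without N-fragment replicate 2 or 3 or C-fragment replicate 1, 2 or 3, and 7 were lower (median -0.11). Perp, a desmosomal and pro-apoptotic membrane protein, was not above background with the N-fragment (at least 3.26-fold lower, adjusted p = 9.35e-06). Trp53inp1, an autophagy and stress gene, was at -0.99, -1.01 and -0.92 with the N-fragment and 0.12, 0.089 and 0.020 with the C-fragment (log2 -1.05 ± 0.078, adjusted p = 7.63e-08). It was below void with both fragments, by log2 -2.90 ± 0.078 (adjusted p = 5.7e-13) with the N-fragment and log2 -1.85 ± 0.078 (adjusted p = 8.64e-10) with the C-fragment. The RNA-binding Zmat3 was lower too (log2 -0.80 ± 0.19, adjusted p = 0.00539). Ei24 (log2 1.43 ± 0.10, adjusted p = 5.06e-08) was higher and lies in the stretch from Tirap to Pknox2. Plk2 (0.70) was not called without N-fragment replicate 2 or 3 or C-fragment replicate 1, 2 or 3 (adjusted p 0.0857 to 0.133), and Dusp14 (0.34) was not called without any 1 of the 6 arrays (adjusted p 0.0631 to 0.158). Mdm2, the ubiquitin ligase that degrades p53, was higher by little, at 4.46, 4.47 and 4.46 with the N-fragment and 4.21, 4.21 and 4.18 with the C-fragment (log2 0.26 ± 0.046, adjusted p = 0.000617). Cdkn1a, the gene of the cell cycle inhibitor p21, was not called.

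In the integrated stress response, by which blocked translation initiation raises ATF4, 4 of 26 genes were higher, with 2 without N-fragment replicate 3 or C-fragment replicate 2 or 3, and 7 were lower (median -0.11). Trib3, a target of ATF4 and CHOP, was at 1.05, 1.23 and 1.24 with the N-fragment and 2.74, 2.76 and 2.38 with the C-fragment (log2 -1.46 ± 0.18, adjusted p = 2.24e-05). Chac1, which degrades glutathione, was at 0.80, 0.81 and 0.70 with the N-fragment and 2.16, 2.26 and 1.94 with the C-fragment (log2 -1.35 ± 0.22, adjusted p = 0.000251). Neither overlapped between the groups. The lipoprotein receptor gene Vldlr was not above background with the N-fragment (at least 1.79-fold lower, adjusted p = 0.000153). On the higher side stood Atf3 (log2 1.26 ± 0.13, adjusted p = 3.29e-06), Cebpb (log2 0.63 ± 0.12, adjusted p = 0.000914) and Ppp1r15a (log2 0.38 ± 0.11, adjusted p = 0.0189), of which Ppp1r15a was not called without N-fragment replicate 3 or C-fragment replicate 2 or 3 (adjusted p 0.0658 to 0.0918). Atf4, Ddit3 and Asns were not called. Endoplasmic reticulum chaperones had 5 of 24 higher, with 2 without N-fragment replicate 2 or 3 or C-fragment replicate 1 or 2 and 3 without N-fragment replicate 1, and none lower (2 at an unadjusted p under 0.05). They were Selenos (log2 0.54 ± 0.17, adjusted p = 0.0362), Sel1l on chromosome 12 (log2 0.41 ± 0.080, adjusted p = 0.00136), Ero1b (log2 0.38 ± 0.065, adjusted p = 0.000571), Creld2 (0.34) and Dnajb9, also on chromosome 12 (0.27), and Selenos was not called without any 1 of the 6 arrays (adjusted p 0.0529 to 0.127).

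Glycolysis genes were lower in 6 of 22 cases and higher in 2 (median 0.05). Aldoc, an aldolase isoform, was at 1.32, 1.32 and 1.18 with the N-fragment and 3.50, 3.51 and 3.32 with the C-fragment (log2 -2.17 ± 0.22, adjusted p = 2.29e-06). Pdk1, a brake on pyruvate oxidation (log2 -0.87 ± 0.10, adjusted p = 1.3e-05), and the muscle phosphofructokinase Pfkm (log2 -0.82 ± 0.097, adjusted p = 1.22e-05) were lower as well. Pfkfb3 (log2 0.32 ± 0.046, adjusted p = 0.000119) and Hk1 (log2 0.64 ± 0.21, adjusted p = 0.0429) were higher, and Hk1 was not called without N-fragment replicate 1 or 2 or C-fragment replicate 1, 2 or 3 (adjusted p 0.0604 to 0.186). Gapdh, Pgk1, Ldha and Pkm, the abundant enzymes of the pathway, were not called. Of 18 hypoxia-induced regulators 4 were lower, led by Ddit4, an inhibitor of mTORC1 (log2 -0.57 ± 0.091, adjusted p = 0.000271), the carbonic anhydrase Car9 (log2 -0.48 ± 0.074, adjusted p = 0.000177) and Vegfa (log2 -0.47 ± 0.15, adjusted p = 0.0323), which was not called without any 1 of the 6 arrays (adjusted p 0.0561 to 0.0969). Ndrg1 (0.52) and Ankrd37 (0.48) were higher, but Ndrg1 was not called without any 1 of the 6 arrays (adjusted p 0.0767 to 0.0945) and Ankrd37 was not called without N-fragment replicate 1 or 2 or C-fragment replicate 2 or 3 (adjusted p 0.0716 to 0.106).

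NRF2 targets, which serve redox defence, had 3 of 23 higher and 3 lower, and their median (-0.07) changed sign with the scaling. Srxn1 (log2 0.76 ± 0.097, adjusted p = 2.58e-05), G6pdx (log2 0.67 ± 0.12, adjusted p = 0.000745) and Gclc (log2 0.32 ± 0.095, adjusted p = 0.0234) were higher, and Gclc was not called without N-fragment replicate 1 or 3 or C-fragment replicate 2 or 3 (adjusted p 0.0558 to 0.1). The glutathione transferase Gstm1 (log2 -0.89 ± 0.12, adjusted p = 6.72e-05), Blvrb (log2 -0.36 ± 0.076, adjusted p = 0.0026) and Prdx1 (log2 -0.30 ± 0.056, adjusted p = 0.00103) were lower. Oxidative phosphorylation subunits were lower in 7 of 29 cases (median -0.15), with 3 without N-fragment replicate 1 and 4 without N-fragment replicate 3 or C-fragment replicate 2 or 3, and none was lower without scaling. Atp5o on chromosome 16 was the lowest (log2 -0.78 ± 0.20, adjusted p = 0.00898) and was not called without N-fragment replicate 1 (adjusted p = 0.0541), and Cox5b (-0.32) and Cox7a2 (-0.28) followed, Cox5b being not called without N-fragment replicate 1 or C-fragment replicate 2 or 3 (adjusted p 0.068 to 0.0925). No cytosolic ribosomal protein gene of 29 was called by limma, with 0 higher and 1 lower at an unadjusted p under 0.05.

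Interferon-stimulated genes were higher in 10 of 30 measured cases and lower in 1 (median 0.20). Oasl1, an antiviral 2'-5' oligoadenylate synthetase-like gene, was at -1.28, -1.38 and -1.44 with the N-fragment and -4.90, -5.01 and -5.28 with the C-fragment (log2 3.70 ± 0.25, adjusted p = 3.03e-08). Ifit1, which binds foreign RNA caps, was at -2.76, -2.46 and -2.44 with the N-fragment and -4.69, -4.27 and -4.64 with the C-fragment (log2 1.98 ± 0.14, adjusted p = 4.1e-08). Its relative Ifit2 was the lower member (log2 -0.24 ± 0.080, adjusted p = 0.0413) and not called without N-fragment replicate 2 or 3 or C-fragment replicate 1, 2 or 3 (adjusted p 0.074 to 0.15). Irf7, the factor that amplifies the response, was at -3.87, -3.94 and -4.37 with the N-fragment and above background on 1 C-fragment array (log2 1.50 ± 0.35, adjusted p = 0.00509). The receptor-proximal factors Stat2 and Irf9 were not called. MHC class I presentation had 2 of 15 higher, B2m (log2 0.44 ± 0.13, adjusted p = 0.027) and Tapbp (log2 0.38 ± 0.097, adjusted p = 0.0109), and none lower (1 at an unadjusted p under 0.05). B2m was not called without N-fragment replicate 1 or 2 or C-fragment replicate 1, 2 or 3 (adjusted p 0.0511 to 0.101) and Tapbp was not called without N-fragment replicate 1 (adjusted p = 0.0558). Nlrc5, Tap1 and Psmb9 were not called.

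Melanocyte markers kept high levels with both fragments but changed in both directions: 3 of 20 were higher and 6 lower (median -0.15), and 2 were lower without scaling. Their summed linear level was 1431 to 1656 with the N-fragment, 1606 to 1763 with the C-fragment and 1656 to 1768 with void. Kit, the receptor of stem cell factor, was at 1.22, 1.00 and 0.99 with the N-fragment and -1.12, -1.04 and -0.82 with the C-fragment (log2 2.06 ± 0.33, adjusted p = 0.000282). Mitf, the master regulator of the lineage, was at 6.23, 6.24 and 6.30 with the N-fragment and 5.70, 5.78 and 5.81 with the C-fragment (log2 0.49 ± 0.073, adjusted p = 0.000126). Mlph, which ties pigment granules to actin, differed by 0.27 and was not called without N-fragment replicate 1 or 2 or C-fragment replicate 1, 2 or 3 (adjusted p 0.0563 to 0.0867). Of the pigment genes, tyrosinase, Tyr, was lower, at 2.81, 2.74 and 2.62 with the N-fragment and 3.50, 3.42 and 3.45 with the C-fragment (log2 -0.73 ± 0.072, adjusted p = 1.74e-06). The transporter Slc45a2 was at 5.19, 5.45 and 5.51 with the N-fragment and 6.02, 6.08 and 6.17 with the C-fragment (log2 -0.71 ± 0.12, adjusted p = 0.000541). Oca2 differed by -0.46 and was not called without scaling. The abundant pigment genes Tyrp1 (-0.16), Dct (-0.12), Pmel (-0.13) and Mlana (-0.099), like Gpr143 (-0.26), were not called. Lysosome genes, which share regulators with pigment granules, were lower in 8 of 25 cases, with 5 without C-fragment replicate 3, and higher in 2 (median -0.13). The proton pump subunit Atp6v1a on chromosome 16 (log2 -0.63 ± 0.067, adjusted p = 4.17e-06), the protease Ctsd (log2 -0.53 ± 0.090, adjusted p = 0.000437) and the glycosidase Gaa (log2 -0.49 ± 0.058, adjusted p = 1.59e-05) were lower, whereas the cathepsins Ctsh (log2 1.31 ± 0.11, adjusted p = 2.51e-07) and Ctsk (at least 1.29-fold higher, adjusted p = 0.00893) were higher. Ctsk was not called without C-fragment replicate 3 (adjusted p = 0.0564).

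Among the remaining lists, 6 of 15 tubulin genes were higher and none lower, 0 at an unadjusted p under 0.05 (median 0.35). Tubb2a was at 3.32, 3.06 and 2.95 with the N-fragment and 1.46, 1.30 and 1.21 with the C-fragment (log2 1.79 ± 0.29, adjusted p = 0.000331) and Tubb6 differed by 0.76. Tubb2b was at 0.70, 0.72 and 0.68 with the N-fragment and -0.52, -0.53 and -0.80 with the C-fragment (log2 1.32 ± 0.21, adjusted p = 0.000252). It was far above void with both fragments, by log2 6.07 ± 0.21 (adjusted p = 1.24e-11) with the N-fragment and log2 4.75 ± 0.21 (adjusted p = 1.19e-09) with the C-fragment. Tubulin genes are near-identical in sequence, so a probe may report on more than 1 of them. Galectins split, with Lgals1 (log2 0.46 ± 0.14, adjusted p = 0.0318) and Lgals4 higher and Lgals3, Lgals3bp (log2 -1.31 ± 0.12, adjusted p = 7.51e-07) and Lgals8 lower. However, Lgals1 was not called without N-fragment replicate 1 or 2 or C-fragment replicate 1, 2 or 3 (adjusted p 0.0556 to 0.159) and Lgals4 was not called without N-fragment replicate 1 or 2 or C-fragment replicate 1, 2 or 3 (adjusted p 0.0514 to 0.188). STAT5 targets, of interest in a Bcr-Abl+ line, had 4 of 12 higher and 2 lower: Id1 was at 2.50, 2.70 and 2.97 with the N-fragment and -0.39, -0.39 and 0.17 with the C-fragment (log2 2.93 ± 0.57, adjusted p = 0.00136). Bcl2l1 and Pim3 (log2 0.74 ± 0.13, adjusted p = 0.000751) were higher too. The feedback inhibitors Socs3 (log2 -0.57 ± 0.051, adjusted p = 6.13e-07) and Socs2 (log2 -0.52 ± 0.080, adjusted p = 0.00016) were lower. Their relative Cish went the other way and was called higher by less (0.29). Proteasome subunits had 4 of 29 higher, with 1 without N-fragment replicate 1 and 2 without N-fragment replicate 2 or C-fragment replicate 1, 2 or 3, and 2 lower, with 1 without N-fragment replicate 3 or C-fragment replicate 1, 2 or 3, by differences of -0.32 to 0.36. Of these 6, Psma3 (0.33) and Psmc1 (0.36) lie on chromosome 12 and Psmd2 (-0.32) on chromosome 16, beside Psmc6 (0.22), Psmd14 (0.19) and Psmb2 (-0.26) elsewhere.

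**Figure D5:**
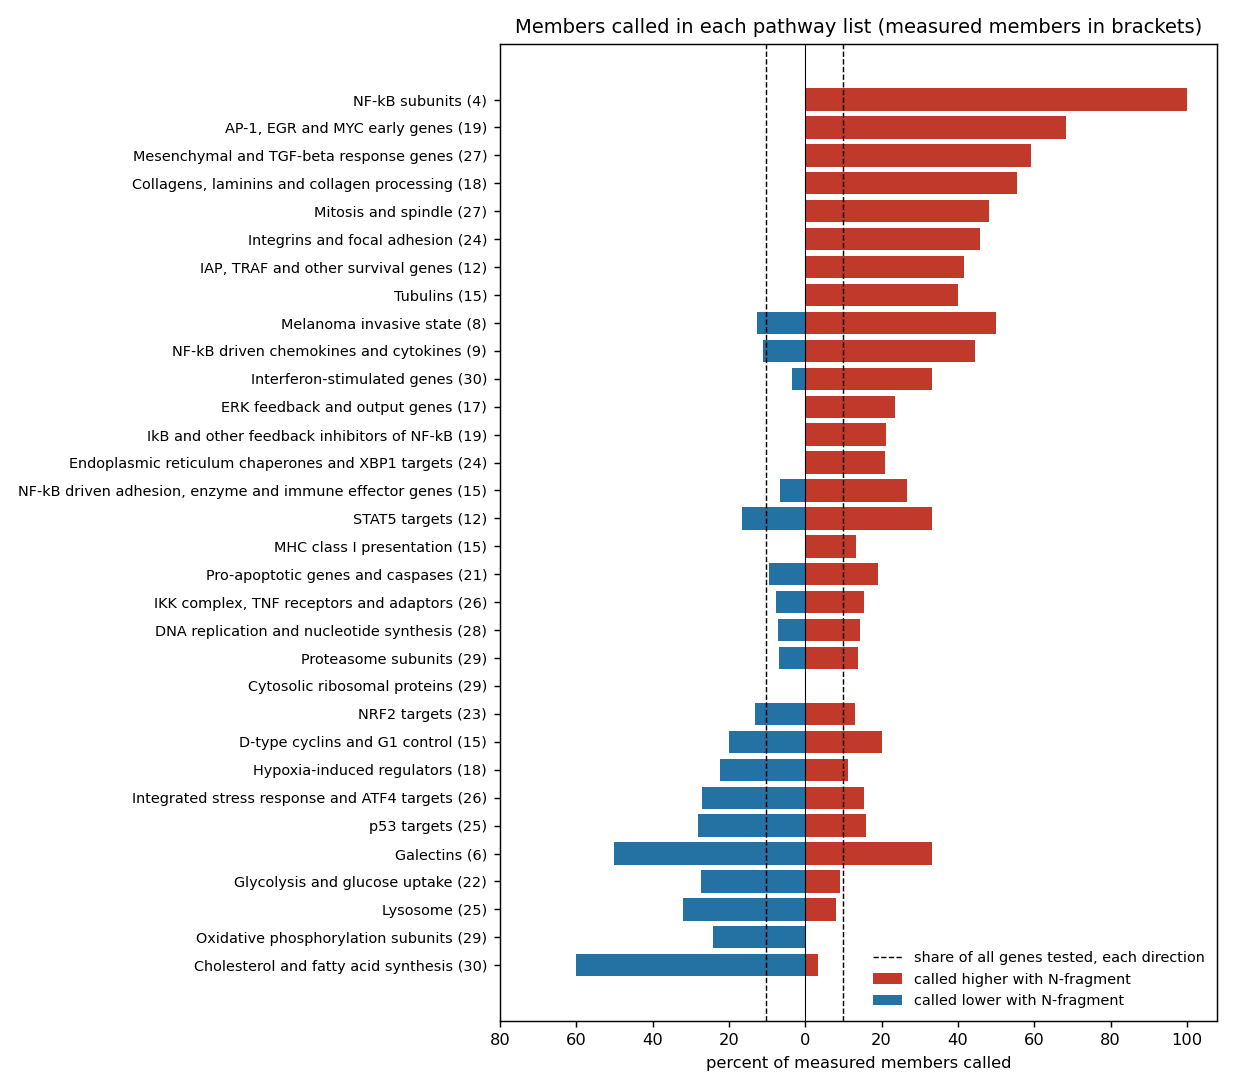
Percent of the measured members of each of 32 pathway lists called higher (right) or lower (left) with the N-fragment, measured members in brackets; dashed lines mark the shares over all genes tested, 9.99% higher and 10.2% lower. The NF-kB subunits, early genes, mesenchymal and matrix genes extend farthest to the right and cholesterol and fatty acid synthesis farthest to the left.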

How the data were processed

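Total RNA of a B16 Bcr-Abl+ murine line was labelled with Cy3 and put on 1-colour Agilent arrays, 44397 features each, on 5 slides of 4. The authors deposited the scanner files, whose intensity values are the processed, background-subtracted signal; the file headers name Agilent Feature Extraction, version 10.7.3.1. The deposited series table equals that signal. No aligner or read depth applies; the number of arrays and signal over background limit precision. From the intensities, log2 was taken and the 75th percentile of all non-control probes of that array subtracted, outlier spots were dropped (109 to 277 an array), and a probe was kept if 3 or more of the 20 arrays had it well above background (23432 probes). The brightest probe stood for each of 18738 genes, 13820 with a symbol in the files and 4918 known by accession only. Lists held 39 groups and 826 different genes, 676 of them measured.

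Levels were fitted with limma 3.58.1 in R 4.3.3 (lmFit, eBayes) over all 20 arrays in 6 groups, with 14 residual degrees of freedom, two-sided tests and Benjamini-Hochberg adjustment over all genes at 0.05; the code was tested on simulated data. Where a group had no array above background, brighter over dimmer is given as "at least N-fold", from the bright group's mean and, per array of the dim group, the higher of the lowest level well above background and the probe's own level. The contrast and the gene lists were chosen with earlier results of these data known. Genes were named by a rule: Rela, the 12 largest called differences in each direction among non-overlapping genes, up to 3 called members of each list in each direction, and any member of the NF-kB lists. Other genes named, such as those not called, were chosen after their values were seen. Alternatives covered scaling, background correction, filters, the probe rule, outliers, the arrays fitted, the variance model, the slide and each array left out. The scanner files gave no mean signal, so background correction by normexp (offset 50) used the median signal, a departure from the plan. Gene chromosome, order and promoters came from RefSeq tables of GRCm38.p6 (13818 genes placed), while the array design was annotated on mm9, so no gene coordinates are given beyond those of the promoters. Some genes that the rule or the lists hold are not reported here by name. Probe positions and protein sequences were not analysed here.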

Additional observations from a re-analysis of the deposited data

How the results depend on the processing

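The 3774 calls became 2957 to 4921 under the 13 alternatives that kept every array of both fragments. Without scaling between arrays the count of lower genes was 926 where 1902 had been called, higher genes were 70.3% of the calls where they had been 49.6%, and the median difference of all genes was 0.06 where it had been -0.04. With the slide as a fixed block 2077 genes were higher and 2596 lower. Leaving out 1 array gave 2764 to 3231 calls, 1349 to 1650 higher and 1401 to 1590 lower. Leaving out the genes on chromosomes 12 and 16 and in the chromosome 9 stretches, an alternative chosen after seeing the data, gave 3337 calls, 1648 higher and 1689 lower. Of 163 named and called genes, 109 kept call and direction under each of the 19 alternatives that measured them, 54 lost the call at least once and none reversed. Cflar, not called at -0.20 (adjusted p = 0.29), reversed to 0.25 (adjusted p = 0.0364) with the mean of its probes; its probes differ. Under the 4 other scalings the counts of some lists moved by over 1.5 times, with the cause not tested: lower members reached 11 for cholesterol and fatty acid synthesis (18 above), 0 for oxidative phosphorylation (7), 2 for melanocyte markers (6), 5 for the lysosome (8), 4 for the integrated stress response (7), 3 for glycolysis (6), 2 for hypoxia (4), 1 for NRF2 targets and STAT5 targets (3 and 2), and 0 for replication, G1, proteasome, effector and invasive genes (2, 3, 2, 1 and 1), and were 0 to 3 for interferon genes (1). Higher members reached 7 for feedback inhibitors (4), 2 for chemokines (4), 2 for p53 targets (4), 5 for NRF2 targets (3), 1 for replication (4), 4 for the lysosome (2) and 1 for galectins (2). Of the 15 lists with an absolute median of at least 0.2, 3 had a median that changed sign under some alternative. The labels number the arrays in 1 run, so no replicate number pairs arrays of different groups, and the slide was the block that could be fitted. Genes above background on no array of a group have bounds only. Junb, Rgs16, Epha2, Irf7, Egr1 and Mbp were above background on 1 or 2 C-fragment arrays, so the size of their difference is uncertain: with normexp, which adds 50 to each signal, it was 0.34, 3.40, 1.86, 0.41, 0.98 and 2.46, each still called.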

Other observations

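Gene families below were picked by symbol after values were seen, so they are descriptions. The IGF2 mRNA-binding proteins, which protect fetal transcripts, split between the fragments: Igf2bp1 was at 0.55, 0.53 and 0.52 with the N-fragment and -0.23, -0.21 and -0.33 with the C-fragment (log2 0.79 ± 0.074, adjusted p = 1.17e-06), whereas Igf2bp3 was at -4.10, -3.96 and -4.18 with the C-fragment and not above background with the N-fragment (at least 2.79-fold lower, adjusted p = 2.98e-05). Igf2bp2, also not above background with the N-fragment (at least 3.75-fold lower, adjusted p = 1.29e-09), lies on chromosome 16. Igf2bp1 exceeded void with both fragments, by log2 1.31 ± 0.074 (adjusted p = 2.31e-09) with the N-fragment and log2 0.53 ± 0.074 (adjusted p = 0.000244) with the C-fragment.

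Inhibitors of matrix metalloproteinases were higher in 3 of 4 cases and lower in none. Timp3, which sits in the matrix, was at -0.36, -0.48 and -0.32 with the N-fragment and -3.88, -3.77 and -3.95 with the C-fragment (log2 3.48 ± 0.30, adjusted p = 4.47e-07), on either side of void at -2.54, -2.42 and -2.57. Timp1 was at 1.05, 0.90 and 0.91 with the N-fragment and 0.33, 0.30 and 0.30 with the C-fragment (log2 0.64 ± 0.15, adjusted p = 0.00572) and Timp2, bright with both fragments, was not called (log2 0.033 ± 0.089, adjusted p = 0.849). Small heat shock genes were higher in 3 of 6 cases and lower in 1, Hspb8 (at least 9.72-fold lower, adjusted p = 0.0314). Hspb1, a chaperone of actin filaments, was at 1.29, 1.32 and 1.45 with the N-fragment and -0.31, -0.20 and -0.25 with the C-fragment (log2 1.61 ± 0.060, adjusted p = 3.45e-11), and void was lower still at -1.53, -1.43 and -1.56. Of 11 measured RGS genes Rgs16 was the higher one and 3 were lower, and of 23 HOX genes 6 were higher and 1 lower. Olfactory receptor genes were called in 6 of 128 cases, 3 in each direction, and 2 of the 3 higher ones were the chromosome 9 neighbours Olfr874 and Olfr875.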
